A study of Mus musculus with 868 samples.

Results

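The cytosolic ribosomal protein genes were taken as the rows whose symbol starts with Rpl or Rps, continues with a number and carries at most a short ending (a, x, l or l1), together with Rplp0, Rplp1 and Rplp2. The rule found 82 of the 24421 gene symbols in the tables, 51 of the large and 31 of the small ribosomal subunit. It used symbols only and no measured value. All 82 had a position in the GENCODE M21 annotation of GRCm38 (mm10), and 4 of them, Rpl10, Rpl36a, Rpl39 and Rps4x, lie on the X chromosome.

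The libraries were 3′ mRNA libraries of total RNA, made for 18 treatment groups of C57BL/6N mice in 24 tissues, 868 libraries in all. A group had 2 libraries in a tissue, or 4 in the brain with asenapine and in the jejunum with sofosbuvir. The groups without drug were untreated mice (labelled WT(No treated), called Untreated here), CMCTween (0.5% carboxymethylcellulose with 0.25% Tween80) and Sucrose (5%). The drugs were APAP (sampled at 2 hours), sofosbuvir, alendronate, risedronate, asenapine, lurasidone, olanzapine, aripiprazole, cisplatin, clozapine, Dox (2 mg per mL), EMPA (2 weeks), lenalidomide, Repatha and teriparatide. No other dose, time, age or sex and no drug vehicle was given in the labels, and the short names were not spelled out. The labels do not say that the libraries of a group came from separate animals, so p-values measure only the spread between these libraries.

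Total counts were 2875950 to 12811780 in the 48 Untreated libraries and 451154 to 3685250 in the other 820. Of 72 tissue markers, 68 were highest in the tissue they mark, and each of the 24 tissues had at least 1 such marker. No pair of libraries of a group held identical counts. Some pairs stood far apart: against a median chi-square per degree of freedom of 2.365 over 432 pairs, clozapine in white fat had 294.1, Untreated eye 27.26 and Untreated jejunum 18.09. The lens gene Cryaa had 1.887 and 7864 CPM in the Untreated eye libraries, and the enterocyte gene Apoa4 397.7 and 11.62 CPM in the Untreated jejunum libraries, and the part of such differences in member results was not tested. Drugs were compared only inside 3 library sets, called A (Untreated, Sucrose, APAP and sofosbuvir), B (alendronate, risedronate, asenapine, lurasidone and olanzapine) and C (CMCTween and the other 8 drugs). These sets rest on the expression values and not on the labels. Drugs of a set share reference libraries, so their results are not independent of each other.

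Ribosomal proteins join ribosomal RNA to form the subunits that translate mRNA, and most of them are needed in equal amounts in every cell. Their mRNAs typically begin with a run of pyrimidines, the 5′ terminal oligopyrimidine or TOP motif, through which growth signals from the kinase mTOR set how much of each mRNA is translated. A few genes have second copies with a narrow tissue range: Rpl3l in striated muscle, and Rpl10l and Rpl39l in male germ cells, where the X chromosome is silenced during meiosis.

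The start sites of the members the results below turn on are shown because they carry or lack a pyrimidine run near the annotated start. Each sequence covers 30 bases of the sense strand from RefSeq (GRCm38.p6), with the annotated start at base 16. Capitals mark the longest run of at least 5 pyrimidines that reaches within 5 bases of the start. Shorter such runs stay in lower case. A marked run can end before the start, as in Rps27l and Rpl39l, and then lies outside the annotated mRNA. Rplp2 encodes an acidic stalk protein, and Rpl35 a protein at the exit tunnel of the large subunit. Rpl39 with Rpl39l, and Rpl10 with Rpl10l, are X-linked genes with their autosomal second copies.
Rplp2 (chr7:141447636-141447665, plus strand): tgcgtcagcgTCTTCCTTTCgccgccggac
Rpl35 (chr2:39005117-39005146, minus strand): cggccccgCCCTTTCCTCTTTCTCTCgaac
Rpl39 (chrX:37085208-37085237, minus strand): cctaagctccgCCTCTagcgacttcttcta
Rpl39l (chr16:10170213-10170242, plus strand): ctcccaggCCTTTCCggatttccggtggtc
Rpl10 (chrX:74270801-74270830, plus strand): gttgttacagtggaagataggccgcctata
Rpl10l (chr12:66284387-66284416, minus strand): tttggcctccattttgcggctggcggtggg
Rps27l (chr9:66946071-66946100, plus strand): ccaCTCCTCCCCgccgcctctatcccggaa
Rpl3l (chr17:24727811-24727840, plus strand): gagtgttctagctctgtcatttgacctctg
Among the 61 members with an annotated RefSeq start, 34 (55.7%) had such a run on the sense strand, against 31.5% of 27025 genes. Runs that end before the start were counted too, so this is not a count of TOP motifs. The hexamer CTTCCG, searched on both strands of the 300 bases around the start, was found in 65.6% of these members and in 17.2% of genes. TATAAA, searched the same way, was found in 9.84% of them and in 14.2% of genes. These matches describe the annotated starts, and no match says only that the letters are not in the window.

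In Untreated mice the 82 genes together gave 2.11% to 18.8% of a tissue's counts. The share was highest in spleen, with 19.1% and 18.5% in the 2 libraries, and next in thymus with 13.1% and 14.1%. Jejunum (12.5% and 11.6%), skin (11.7% and 11.2%) and colon (11.2% and 11.6%) followed. It was lowest in brain, with 2.14% and 2.08%, in skeletal muscle with 3.27% and 3.18%, and in testis with 3.64% and 3.59%. The libraries of neighbouring tissues in this order overlapped in 12 of 23 neighbour pairs, whereas spleen lay above and brain below every other tissue.

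**Figure D1:**
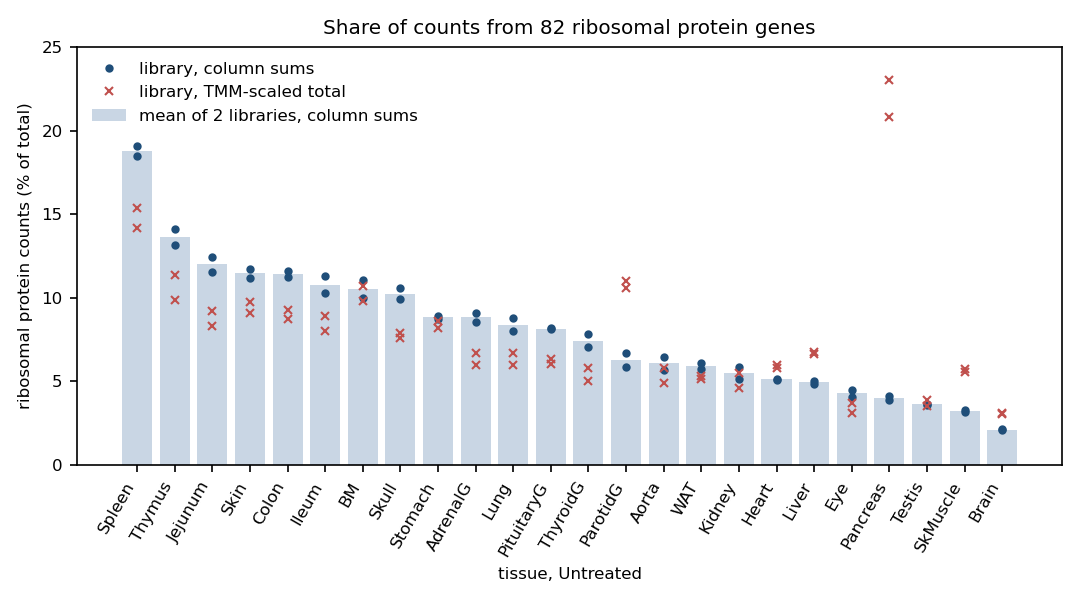
Share of all counts that came from the 82 ribosomal protein genes in each Untreated tissue (percent, bars the mean of 2 libraries, dots the libraries by column sums, crosses the same libraries over TMM-scaled totals). Spleen is highest and brain lowest by column sums, while over TMM-scaled totals pancreas moves from rank 21 to rank 1.

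The share depends on what else fills a library. In brain 5 genes held 53.8% of the counts, among them Akap5 with 44.3%, and in pancreas 5 genes held 37.5%. Without Rn45s, Akap5 and Lrrc17 in the totals the brain share was 4.48%, rank 21, and skeletal muscle was lowest with 3.37%. TMM scaling, which sets libraries to the same level over most genes, put pancreas at 20.8% and 23.1% and first of 24, against 3.88% and 4.11% and rank 21 by column sums. Spleen kept a rank of 1 or 2 on each of these scales.

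Most members moved together over the tissues. Of the 77 members with a mean of at least 20 CPM (counts scaled to a common library total), 62 had a Pearson r above 0.9 with the median of the other members over the 24 tissue means of log2 CPM. The median r was 0.953. These r values describe points that share libraries and depth and carry no test. The 4 members below 0.5 were Rps27l (0.403), Rps4l (0.148), Rpl3l (-0.21) and Rpl10l (-0.327), all of them second copies. The highest mean levels belonged to Rps9, a small-subunit protein (3810 CPM over all tissues), the stalk genes Rplp1 (3582 CPM) and Rplp2 (2951 CPM), Rps12 (3136 CPM) and Rpl13a (2666 CPM). Rps9 had 12020 and 11570 CPM in the spleen libraries and 689.9 and 698 CPM in brain. In a 3′ library a transcript gives counts mostly from its end, so levels were not divided by length, but genes can still differ in how well their end is counted.

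At the other end 4 members were listed at or near 0. Rpl26 had 0 counts in all 868 libraries, Rps27 had 79, Rpl30 had 252 and Rpl34 had 541 in total. These proteins are parts of every ribosome, so a listed 0 here was not read as absence of the mRNA. Of the 82 members 79 passed the filter on low counts in the Untreated fit. All 79 differed between tissues by edgeR's quasi-likelihood F test at a p under 0.05 after Benjamini-Hochberg adjustment, but so did 99.6% of the 18298 genes tested.

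Against the mean of the other 23 tissues, on the TMM scale, members were highest in pancreas, spleen and parotid gland. In pancreas 75 of 79 were higher and 1 lower, beside 16.3% and 13.3% of all genes, with a median log2 difference of 1.62 (all genes -0.47). By column sums the direction turned in pancreas, with 1 member higher and 71 lower (median -0.94), and in parotid gland, with 5 higher and 26 lower (median -0.17). Rpl32 (563.3 and 465.4 CPM) differed by 2.90 ± 0.10 (SE) and Rpl41 (1498 and 1465 CPM) by 2.72 ± 0.10 on the TMM scale, and both proteins belong to the large subunit. In spleen 73 were higher and 2 lower, beside 28% and 18.3% of genes, with a median of 1.06 (all genes -0.16). Rps15a, a small-subunit protein, had 1603 and 1636 CPM in spleen against 108 and 96.42 CPM in brain, and was 1.78 ± 0.08 above the other tissues. The 2 lower in spleen were Rps27l (-1.12 ± 0.13) and Rps4l (-0.80 ± 0.15). In parotid gland 75 were higher and 1, Rps4l, lower, beside 24.7% and 12.5% of genes, with a median of 0.65 (all genes -0.07).

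Testis, eye and brain were lowest. In brain none of 79 was higher and 74 were lower, beside 28.8% higher and 23% lower of all genes, with a median of -1.26 (all genes -0.17). Rps27l (6.991 and 5.53 CPM) was 3.04 ± 0.18 lower on the log2 scale and Rplp0 (76.23 and 77.42 CPM), the stalk's base, was lower by 2.52 ± 0.15. In eye 74 were lower and 3 higher, beside 21.5% and 34.4% of genes, and the median was -1.06 (all genes 0.01). Without either of the 2 eye libraries 73 or 74 were lower. In testis 66 were lower and 4 higher, beside 28.6% and 40.2% of genes, with a median of -1.05 (all genes 0.02). In bulk tissue fewer cells of a type and less RNA per cell cannot be told apart.

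Genes outside the 82 were read from lists. A list of 15 other genes whose mRNAs carry a TOP motif held translation factors and also Hnrnpa1, Npm1, Tpt1, Naca and Btf3. All 15 were lower in brain, 14 were lower in eye and 13 higher in spleen, while testis had 7 higher and 6 lower. Of 20 ribosome assembly genes, 13 were higher and 1 (Rrn3) lower in spleen, and in testis 5 were higher, among them Wdr12 (log2 3.42 ± 0.09), and 11 lower. The 6 cell division markers were all higher in spleen, and 5 of them were higher in testis, where ribosomal protein genes were lower. The mitochondrial ribosomal protein genes, a separate family, went another way in some tissues only. Of 77, 74 were higher in heart and 68 in skeletal muscle, beside 23.9% and 27.4% of all genes. In spleen 59 were lower and 0 higher. As with the members, most calls were lower in eye (62 lower, 2 higher) and brain (43 and 2). Most were higher in pancreas (29 higher, 10 lower) and parotid gland (25 and 4), while testis had 23 higher and 32 lower. The shares of all genes in spleen, eye, brain, pancreas, parotid gland and testis are given above.

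The X-linked members stood lowest in testis. Rps4x had 48.47 and 59.05 CPM there against 3679 and 3717 in spleen and 253 and 239 in brain. Rpl10 had 62.95 and 74.27 CPM, Rpl39 61 and 78.62 CPM, and Rpl36a 107 and 120 CPM. On the log2 scale testis was below the other tissues by 4.30 ± 0.18 (SE) for Rps4x, 3.67 ± 0.18 for Rpl10, 3.53 ± 0.17 for Rpl39 and 3.31 ± 0.16 for Rpl36a, each with an edgeR adjusted p of at most 1.43e-19. The next lowest, the autosomal Rps3, differed by -2.20 ± 0.15, and the other tested members had a median of -1.03. Over all 628 tested genes of the X chromosome 255 were lower and 197 higher in testis, with a median of -0.96.

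**Figure D2:**
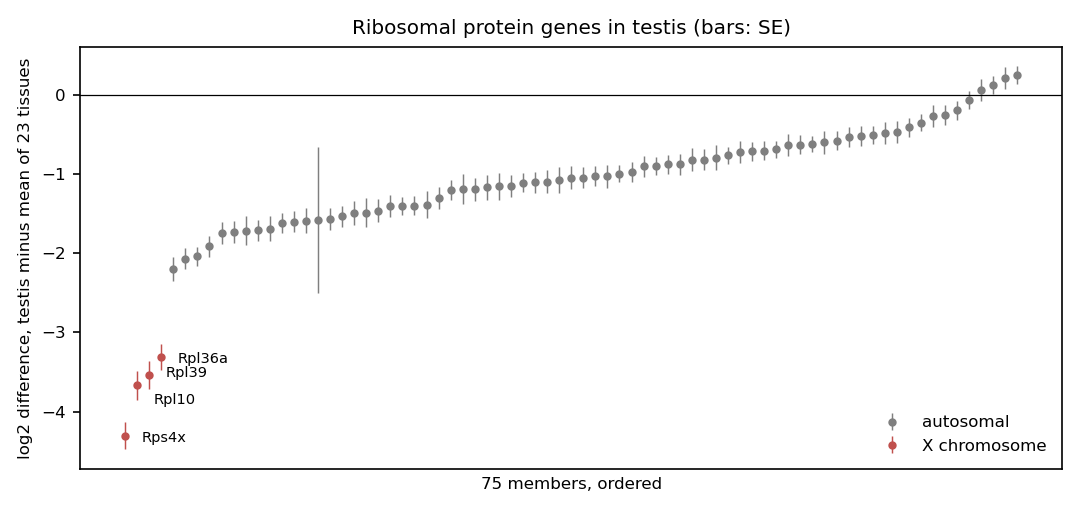
Log2 difference of each tested member between Untreated testis and the mean of the other 23 tissues (TMM scale, bars the SE, the 4 second copies Rpl3l, Rpl10l, Rpl39l and Rps4l left out). The 4 X-linked genes, in red, lie between -4.30 and -3.31, below all autosomal members; the long bar is Rpl34, with 541 counts in 868 libraries.

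Their autosomal second copies were high in the same 2 libraries. Rpl10l had 765.2 and 721.6 CPM in testis, and at most 0.763 CPM (mean of 2 libraries) in any other tissue, with 37 of 48 libraries at 0. It gave 91.5% of the pair's counts with Rpl10. Rpl39l had 332.9 and 353 CPM and gave 83.2% of the pair with Rpl39. Rps4l had 340.1 and 325.7 CPM and gave 86.1% of the pair with Rps4x, with pituitary gland next (133.7 and 147.8 CPM). For Rpl36a the symbol rule finds no second copy; Rpl36al, an autosomal gene outside the rule, differed in testis by -0.35 ± 0.11 (edgeR adjusted p = 0.0054). Over the 36 testis libraries of all treatments Rpl10l ran from 527.3 to 1017 CPM, Rpl39l from 313 to 479.7 CPM and Rps4l from 123.7 to 409.9 CPM. The Rps4l medians were 362.7 CPM in set A, 159.9 in set B and 141.6 in set C, beside 70.36, 48.79 and 31.82 CPM for Rps4x, so the Untreated level of Rps4l lies in the set where it is highest. Of 15 testis drug contrasts each, none called Rpl10l, asenapine called Rpl39l higher (log2 0.38 ± 0.08) and olanzapine lower (-0.34 ± 0.08), and APAP called Rps4l lower (-0.42 ± 0.10).

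**Figure D3:**
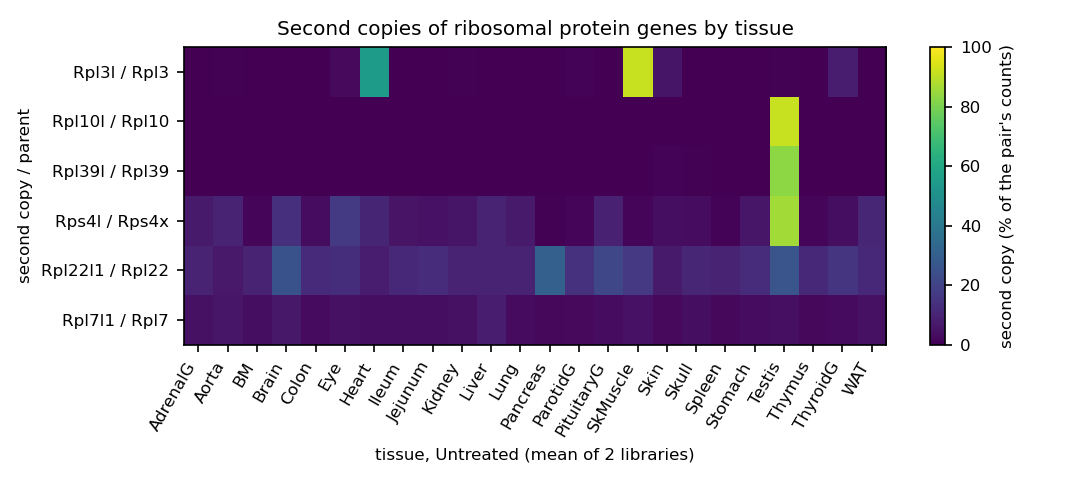
Second copy as percent of the counts of the pair (colour) in each Untreated tissue (mean of 2 libraries) for 6 pairs. Rpl10l, Rpl39l and Rps4l are high in testis, Rpl3l in skeletal muscle (91.5%) and heart (55.0%).

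Rpl3l, the striated muscle copy of Rpl3, had 528.1 and 498.4 CPM in skeletal muscle, where Rpl3 was at its lowest tissue level (44.79 and 50.78 CPM). In heart Rpl3l had 267.5 and 310.4 CPM and Rpl3 237.5 and 233.8 CPM, so the copies were nearly level. Thyroid gland (70.24 and 69.23 CPM) and skin (61.35 and 52.78 CPM) came next. The skeletal muscle gene Acta1 was present in these tissues too, with 7566 and 5638 CPM in thyroid gland and 5096 and 4924 CPM in skin, and its part in the Rpl3l level was not tested. The remaining pairs had no such switch. Rpl22l1 gave 6.88% to 30.6% of its pair with Rpl22, highest in pancreas, and Rpl7l1 gave 2.18% to 7.57% of its pair with Rpl7.

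Drug effects on the members were in most tissues small or not past the test. Over 15 drugs and 24 tissues there were 360 contrasts, and 201 of them called no member at an edgeR adjusted p under 0.05. At least 10 members were called in 1 direction in 64 contrasts, and in none of the 360 were 10 called in both directions. In a simulation of the kidney cisplatin contrast the test recovered 22.4% of genes changed 1.5-fold, 70.1% at 2-fold and 95.5% at 4-fold. The changed genes were drawn from all genes above a floor on mean count, not from the members, and only kidney was simulated. Rates for the members and for other tissues were not tested, and a contrast without calls can still hold small differences.

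Summed over tissues, each of the 1810 member tests per drug counted once, APAP had 28 calls higher and 335 lower (4.83% and 5.12% of all gene tests). Asenapine had 307 higher and 18 lower (2.38% and 2.29%), and olanzapine 1 higher and 291 lower (1.96% and 1.3%). Each of these drugs is in the other's reference. Cisplatin had calls both ways, 220 higher and 122 lower (5.6% and 5.53%). Sofosbuvir had 7 and 138 (1.19% and 1.08%), lurasidone 78 and 19 (1.1% and 0.531%), and Repatha 0 and 82 (0.509% and 0.476%). Clozapine (22 and 57, beside 0.373% and 0.303%), aripiprazole (12 and 61, beside 0.92% and 0.535%), EMPA (5 and 65, beside 0.326% and 0.388%) and teriparatide (1 and 43, beside 0.349% and 0.302%) had most of their lower calls in the adrenal gland. Dox had 12 and 21 (0.466% and 0.528%), risedronate 28 and 25 (0.915% and 1%) and alendronate 7 and 19 (0.406% and 0.298%). Lenalidomide had 1 call in each direction (0.0523% and 0.0656%). The controls differed as well: Sucrose against Untreated gave 64 higher and 223 lower (2.76% and 3.53%), with Untreated libraries the deeper ones. In adrenal gland Sucrose called 38 of 75 members lower and 0 higher (7.59% of genes lower), and in parotid gland 25 lower and 0 higher (8.49% lower). Totals moved with the reference: against Sucrose alone APAP had 140 lower and 14 higher. Against all other groups of set C cisplatin had 414 higher and 121 lower, and clozapine 22 lower and 71 higher. The share of all genes called against these references is not given, so these totals do not tell members from other genes.

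**Figure D4:**
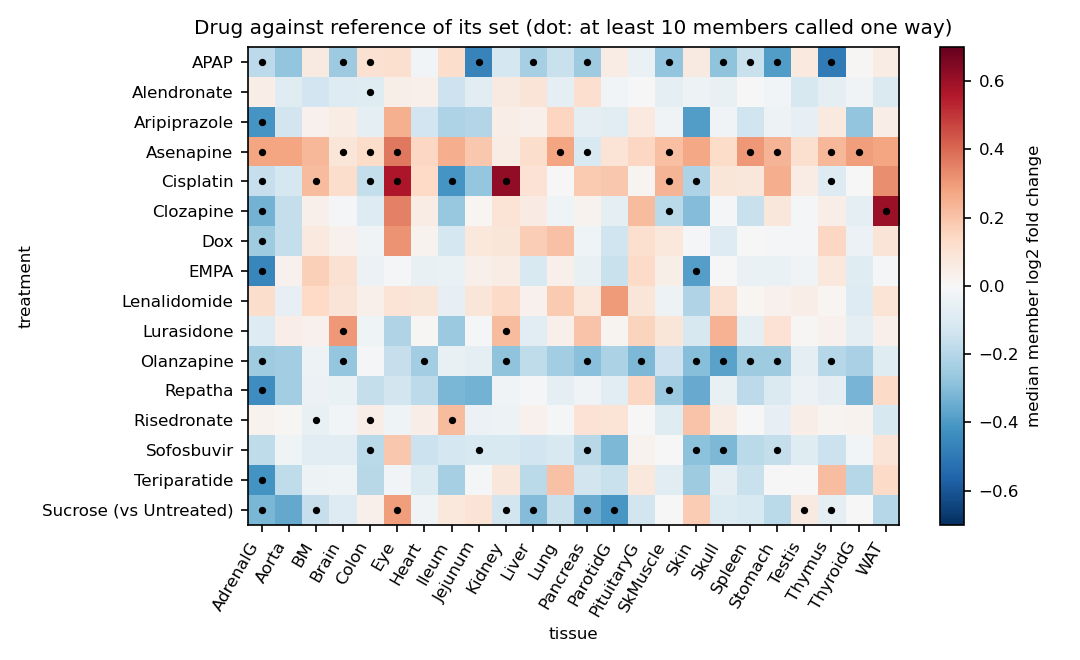
Median log2 fold change of the tested members for each drug (rows) against the reference of its set in each tissue (columns); a dot marks at least 10 members called in 1 direction. Kidney and eye with cisplatin are the strongest red cells with a dot besides white fat with clozapine (0.61), and thymus with APAP (-0.49) is the strongest blue.

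The members called in most of the 360 contrasts were Rps15 (18 higher, 38 lower), Rpl41 (25 and 27), Rps19 (25 and 25), Rpl37a (13 and 33) and Rplp2 (16 and 30). The 8 drug and tissue pairs in which the share of members called most exceeded that of all genes are described one by one.

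**Figure D5:**
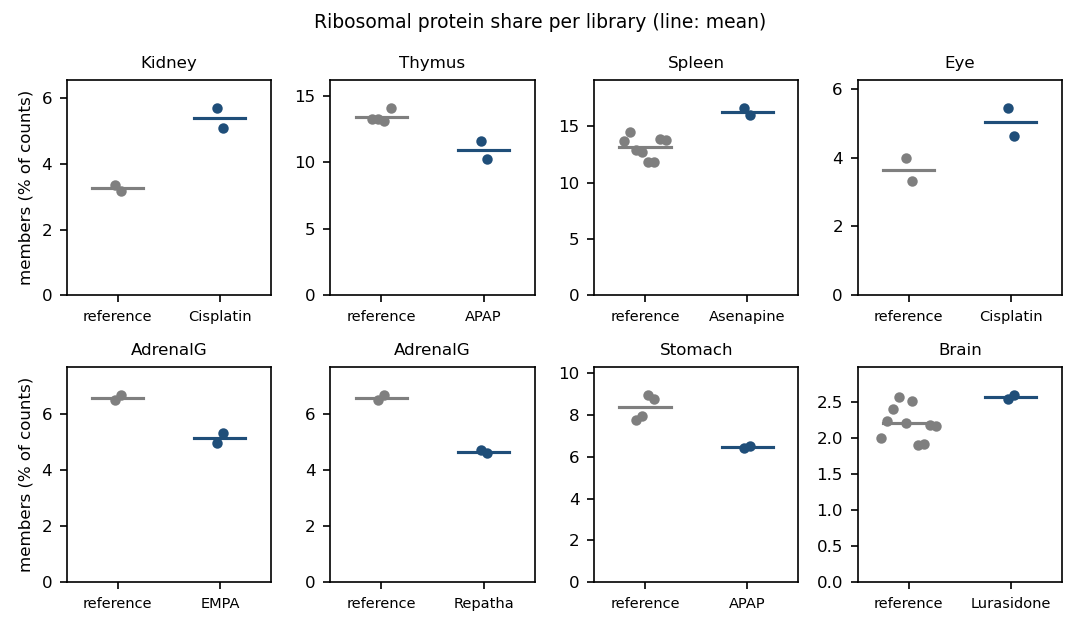
Share of counts from the 82 genes in every library of the 8 pairs (percent, dots; lines are group means). Drug and reference libraries do not overlap in 7 pairs, and in brain the lurasidone libraries (2.53% and 2.59%) overlap the highest reference libraries.

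With cisplatin, a platinum compound known to damage the kidney tubule, ribosomal protein transcripts were higher in kidney. The 82 genes gave 5.70% and 5.09% of counts with cisplatin, 3.35% and 3.18% with CMCTween, and 2.91% to 3.63% in all 16 libraries of set C without cisplatin. Of 75 tested members 68 were higher and 0 lower (11.3% and 11.6% of all genes), with a median of 0.62. Leaving out any 1 of the 4 libraries compared left 51 to 67 higher. Rps19 rose from 241.6 and 255 CPM to 637.6 and 520 CPM (log2 1.14 ± 0.14 SE, edgeR adjusted p = 3.67e-08). Rps12 rose from 581.9 and 579.6 to 1487 and 1173 CPM (log2 1.11 ± 0.11), and both are small-subunit proteins. Rpl36a and Rps24 rose by 1.11 ± 0.14 and 1.09 ± 0.12. All 3 stalk genes and 5 of the 15 other TOP genes were higher, as were 4 of 20 assembly genes with 1 lower. Of 76 mitochondrial ribosomal protein genes 4 were higher and 6 lower. Of 9 tested p53 targets 8 were higher, and their summed level was 2668 to 3648 CPM against 219.1 to 247.2 CPM; the part of this in the member result was not tested.

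Rps27l, the copy of Rps27 that is a known p53 target, had the largest fold change among kidney members. It rose from 208.4 and 176.2 to 462.6 and 472.7 CPM, a log2 change of 1.20 ± 0.12 (edgeR adjusted p = 6.23e-10), and no library overlapped. It was also higher with cisplatin in colon (log2 0.68 ± 0.13, adjusted p = 0.00022) and liver (0.59 ± 0.14, adjusted p = 0.00439) by edgeR. In thymus (-0.67 ± 0.21, edgeR adjusted p = 0.00717) and ileum (-0.45 ± 0.17, edgeR adjusted p = 0.046) it was lower. DESeq2 gave adjusted p = 0.054 in thymus and 0.181 in ileum, and in ileum the edgeR call was also lost under 4 other settings (adjusted p from 0.0684 to 0.127). The other 19 of 24 tissues did not pass the test, with values from -0.46 to 0.70. In colon, where 8 of 8 tested p53 targets rose, the median of all members was -0.17. Cdkn1a, the best known p53 target, rose in colon by 1.42, in liver by 6.46, in ileum by 1.05 and in thymus by 1.75, so Rps27l and Cdkn1a went opposite ways in the last pair of tissues. No other drug called Rps27l higher in any of 24 tissues, and 8 others called it lower 11 times, olanzapine in 3 tissues, APAP in 2 and the other 6 in the adrenal gland (log2 -1.01 to -0.76).

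In eye the share with cisplatin was 5.45% and 4.64% of counts against 3.98% and 3.32% with CMCTween, and all 16 libraries of set C without cisplatin reached at most 4.59%. Of 76 tested members 49 were higher and 0 lower (2.39% and 1.97% of genes), with a median of 0.57. Rpl36a rose from 354 and 274.5 to 608.9 and 520.4 CPM (log2 0.95 ± 0.14, edgeR adjusted p = 9.34e-05), and Rps3, Rpl11, Rpl39 and Rps14 were higher by 0.77 to 0.89. Without cisplatin replicate 1 (5.45%) 1 member was called, and without CMCTween replicate 4 (3.32%) also 1, with medians of 0.44 and 0.41. No assembly gene of 20 and no mitochondrial ribosomal protein gene of 76 passed. Clozapine in eye gave 4.36% and 4.59%, and 7 members were higher (0.944% of genes). In ileum cisplatin went the other way, with 42 of 75 members lower and 1 higher (14.5% and 14.7% of genes) and a median of -0.41. There the CMCTween libraries themselves differed, with 7.19% and 9.75% of counts, against 6.98% and 6.62% with cisplatin and a median of 7.08% over all 16 libraries without cisplatin. The count was 23 without CMCTween replicate 4 and 53 without CMCTween replicate 3, and 26 and 20 without cisplatin replicate 1 or 3.

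With APAP, the analgesic acetaminophen known as a liver toxicant, members were lower in thymus and stomach at its 2 hour time. In thymus the share was 11.7% and 10.2% with APAP, 13.3% and 13.3% with Sucrose, and 13.1% and 14.1% in Untreated. Of 75 members 63 were lower and 0 higher (15.4% and 10% of genes), with a median of -0.49. Without APAP replicate 2 35 were lower, and by column sums 34 were lower and 2 higher. Rpl4 had 1140 and 820.1 CPM with APAP, 1723 and 1775 with Sucrose and 1831 and 1952 in Untreated (log2 -1.12 ± 0.16, edgeR adjusted p = 9.13e-07). Rplp2 had 3183 and 3029 CPM against 4121 and 3952 with Sucrose and 6271 and 6531 in Untreated (log2 -0.94 ± 0.10), so Sucrose and Untreated libraries did not overlap either. Rpl31, Rpl6 and Rps15 were lower by 1.07, 0.92 and 0.91. Of 20 assembly genes 12 were lower, as were 28 of 76 mitochondrial ribosomal protein genes. The 15 other TOP genes went both ways, with 6 lower, among them Eef1d (-1.37 ± 0.17), and 2 higher, Pabpc1 (0.51 ± 0.12) and Tpt1 (0.32 ± 0.09). The 6 cell division markers were all lower, with a summed level of 397.5 to 408.6 CPM against 2210 to 2880 CPM, and T cell markers summed to 1430 to 1587 CPM against 1415 to 1639 CPM, with 1 of 5 higher and 1 lower. Neutrophil genes summed to 140.6 to 226.8 CPM against 60.03 to 121.9 CPM (2 of 4 tested higher), and pancreatic acinar genes to 7.176 to 117 CPM against 2.662 to 102.9 CPM (2 of 5 tested higher). Their part in the member result was not tested.

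In stomach the share was 6.40% and 6.50% with APAP, 7.77% and 7.96% with Sucrose, and 8.93% and 8.75% in Untreated. Of 75 members 44 were lower and 0 higher (5.34% and 4.31% of genes), with a median of -0.39. The count was 21 without APAP replicate 1, 25 without replicate 2 and 20 against Sucrose alone. Rpl13a had 1251 and 1197 CPM against 2304 and 2356 with Sucrose and 2937 and 2884 in Untreated (log2 -1.16 ± 0.11, edgeR adjusted p = 2.57e-08). Rps19, mutated in Diamond-Blackfan anaemia, had 793.7 and 788.6 CPM against 1287 to 1586 CPM in the 4 reference libraries. Rpl4, Rplp2 and Rpl31 were lower by 1.02, 0.90 and 0.86. For Rpl13a and Rps19 no APAP library overlapped a reference library. Of 20 assembly genes 1 was lower, and 1 of 6 division markers. In jejunum the APAP share was 7.87% and 7.84% and the 4 control libraries had 11.5% to 12.9%. There 24 of 75 members were lower with APAP and 0 higher (9.52% and 12.6% of genes), but 1 when only the libraries of set A were fitted, 1 without APAP replicate 2, 3 without APAP replicate 1, 11 without Sucrose replicate 2 and 14 without Untreated replicate 2. The 4 sofosbuvir libraries ranged from 9.43% to 12.7%.

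The response to APAP was compared between thymus, the tissue with the lowest median, and ileum, the one with the highest, in 1 fit of both tissues. In ileum 2 of 75 members were higher and 0 lower (9.24% and 6.75% of genes), with a median of 0.12. The difference in response, ileum minus thymus, was positive for 55 of 75 members and negative for 0 by edgeR, beside 7.01% and 5.21% of 12333 genes, with a median of 0.58. Rpl4, a large-subunit protein, had 1712 and 1504 CPM with APAP in ileum, 1617 and 1589 with Sucrose and 1095 and 1232 in Untreated, whereas in thymus both APAP libraries lay below all 4 reference libraries (difference 1.44 ± 0.23 SE on the log2 scale, edgeR adjusted p = 1.04e-05). Rpl31 differed by 1.27 ± 0.17 and Rpl23 by 1.06 ± 0.19. The 2 tissues were picked for their medians, and that choice sets the direction of the difference. By column sums 13 members were positive (3.03% of genes), with a median of 0.26.

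Asenapine, an atypical antipsychotic, was compared in spleen with the other 4 drugs of set B. The share was 16.6% and 16.0% against 11.8% to 14.5% in the 8 reference libraries, lowest with olanzapine. Of 75 members 51 were higher and 0 lower (3.73% and 2.65% of genes), with a median of 0.30. Rpl36 had 1500 and 1381 CPM against 793.8 to 1091 CPM (log2 0.63 ± 0.09, edgeR adjusted p = 6.22e-06). Rps15, Rpl8, Rpl18 and Rpl9 were higher by 0.51 to 0.53, and their libraries did not overlap. Without asenapine replicate 3 the count was 8 and without replicate 4 it was 28. Asenapine in spleen had libraries numbered 3 and 4, and the other drugs 1 and 2. The cell division markers summed to 348.8 to 417.6 CPM against 468 to 1376 CPM, red cell precursor genes to 334.1 to 343.9 CPM against 212.8 to 1573 CPM, and neutrophil genes to 236.9 to 349.4 CPM against 261.1 to 1306 CPM. B cell genes summed to 1198 to 1283 CPM against 1093 to 1430 CPM, with Cd79a higher (log2 0.55 ± 0.12) and Ms4a1 lower (-0.67 ± 0.11), and T cell genes to 308.4 to 359.4 CPM against 231.5 to 325.4 CPM, with Cd3d higher (0.69 ± 0.17). Acinar genes summed to 55.91 to 152.9 CPM against 56.47 to 976.4 CPM, with 2 of 6 lower. The part of these lists in the member result was not tested. Asenapine had a median above 0 in 23 of 24 tissues and olanzapine one below 0 in all 24, each with the other in its reference.

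In brain lurasidone, another antipsychotic, gave 41 of 75 members higher and 0 lower (3.31% and 2.57% of genes), with a median of 0.30. Rplp2 had 400.7 and 398.8 CPM against 228.4 to 343.9 CPM in the 10 reference libraries (log2 0.63 ± 0.08, edgeR adjusted p = 9.68e-07), without overlap. Rpl3 had 436.1 and 428.6 CPM, against 421.6 CPM in the highest asenapine library and 234.3 and 239.7 CPM with olanzapine (log2 0.56 ± 0.08). Rps19 and Rpl8 were higher by 0.55 each and Rpl36 by 0.57. Without lurasidone replicate 1 the count was 8, without replicate 2 it was 24, and by column sums it was 20. Only 12 of the 75 tested members had both lurasidone libraries above all 10 others, beside 1.87% of genes.

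In the adrenal gland 20 or more members were lower with 7 drugs of set C than with CMCTween, and the lenalidomide libraries were as high as the CMCTween ones. With EMPA 48 of 75 members were lower and 0 higher (3.14% and 1.88% of genes), with a median of -0.46, and with Repatha also 48 and 0 (3.77% and 2.32%), with a median of -0.44. Aripiprazole had 38 lower (2.11% of genes), teriparatide 39 (4.39%), clozapine 36 (2.59%) and cisplatin 20 (5.03%), with 20 also for Dox (1.92%), all against the same 2 CMCTween libraries. Against the mean of all other groups of the set, EMPA had 1 lower, Repatha 11, aripiprazole 1, teriparatide 3 and clozapine 0. Leaving out 1 library gave 19 (EMPA replicate 1) to 37 for EMPA and 22 (Repatha replicate 1) to 37 for Repatha, with 24 and 25 without CMCTween replicate 4. The share was 6.47% and 6.65% with CMCTween and 6.74% and 6.48% with lenalidomide. It was 4.95% and 5.31% with EMPA, 4.69% and 4.60% with Repatha, and 4.86% to 5.77% in the remaining libraries except 1 cisplatin library with 6.53%. Rps27a, made as a fusion with ubiquitin, had 1833 and 1838 CPM with CMCTween, 1868 and 1555 with lenalidomide, 893.6 and 973.9 with EMPA and 821 and 761.7 with Repatha (log2 -1.11 ± 0.12 and -1.20 ± 0.12, edgeR adjusted p = 5.72e-07 and 4.94e-07). Rpl35 was lower too, with EMPA (log2 -0.89 ± 0.12) and Repatha (-0.92 ± 0.12). Rpl22 had 854.7 and 824.4 CPM with CMCTween and 802.2 and 764.3 with lenalidomide, and 411.6 to 530.8 CPM in all 14 other libraries of the set. Th, a marker of the adrenal medulla, had 287.9 and 234.5 CPM with CMCTween and 172.2 to 748 CPM in the other libraries. Replicate number moved with the level: 9 of the 11 libraries numbered 3 or 4, both CMCTween and both lenalidomide ones included, lay above all 7 numbered 1 or 2 (at most 5.31%), and cisplatin had 6.53% in replicate 3 and 5.11% in replicate 1. What the numbers stand for is not in the labels, and their part in the drug differences was not tested.

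Among second copies, Rps27l was called in 16 of 360 drug contrasts and Rpl22l1 in 13 of 360 (its parent Rpl22 in 15). Rps4l was called in 7 of 345, Rpl39l in 4 of 45 and Rpl3l in 4 of 90. Rpl7l1 was called in 3 of 360 and Rpl10l in 1 of 30, aripiprazole in lung. Over all genes a drug called from 0.0523% higher and 0.0656% lower (lenalidomide) to 5.6% and 5.53% (cisplatin). These counts alone therefore do not set the copies apart from other genes. The filter on low counts can also keep a gene that is high in 1 group only. Of the Rpl22l1 calls 7 were in the adrenal gland, lower with every drug of set C but lenalidomide (log2 -1.21 to -0.68). In skeletal muscle Rpl3l was lower with APAP (log2 -0.60 ± 0.11, edgeR adjusted p = 0.000105) and cisplatin (-0.48 ± 0.13, edgeR adjusted p = 0.00341). Its parent Rpl3 was higher there with APAP (0.47 ± 0.17, edgeR adjusted p = 0.0425). In skin Rpl3l was higher with lurasidone (100.4 and 104.3 CPM against 3.5 to 79.15 CPM in 8 reference libraries), where the muscle genes Ckm (800.1 and 797.4 CPM against 30.33 to 420.9 CPM) and Acta1 (5432 and 6197 CPM against 135.3 to 3634 CPM) were also highest. The part of muscle in these skin libraries was not tested. Rpl3l in skin was also higher with cisplatin (log2 1.84 ± 0.60, edgeR adjusted p = 0.0359), and Rpl39l in skin with olanzapine (2.22 ± 0.44, edgeR adjusted p = 0.00162). In the aripiprazole lungs Rpl10l had 62 and 64 counts and Rpl39l 34 and 47, against 0 and 2, and 0 and 0, with CMCTween. The testis transcripts Prm1 (1000 and 978 counts) and Tnp1 (1246 and 1227 counts) were present in the same 2 lung libraries, against 3 and 22, and 0 and 27, with CMCTween. In white fat with clozapine 12 of 75 members were higher (1.79% of genes) and the median was 0.61 on the TMM scale, while the share of counts was 3.03% and 4.45% against 4.26% and 4.23% with CMCTween. By column sums 0 were called and the median was -0.19, and with only the libraries of set C 0 were called. Without clozapine replicate 3 the count was 0 and the median 0.04, without clozapine replicate 4 71 were higher (median 0.97), and without either CMCTween library 0 were.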

How the data were processed

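The authors deposited 1 table of raw counts per gene symbol for each of 24 tissues, and the counts were used as deposited. Libraries were made with a QuantSeq 3′ mRNA kit, per the labels' protocols. The submitters' processing notes name bcl2fastq 2.17, TopHat2 2.1.1, HTSeq 0.9.1 and mm10. The gene annotation and counting settings are not given in the sources used here. A 3′ end shared by gene copies or pseudogenes can be counted to neither or either, which bears on the members listed near 0 and on the second copies.

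Counts were fitted in R 4.3.3 with edgeR 4.0.16: genes kept by filterByExpr (minimum count 10), library sizes from column sums, TMM factors, the quasi-likelihood F test, and Benjamini-Hochberg adjustment over all genes of a contrast at 0.05. Tissues were compared in 1 fit of the 48 Untreated libraries (24 residual degrees of freedom), and drugs in 1 fit per tissue of 18 groups (36 or 38 libraries, 18 or 20 residual degrees of freedom). APAP and sofosbuvir were set against the mean of Untreated and Sucrose, drugs of set B against the mean of the other 4, and drugs of set C against CMCTween. The SE of a log2 difference is its size over the square root of F. CPM are counts scaled to a common column sum. The procedure was tested on simulated kidney counts with 200 changed genes. DESeq2 1.42.0 and the other alternatives are in the closing section.

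The members, gene lists and tests were chosen with earlier results of these data known. Named members are the second-copy pairs and stalk genes, the extremes of Untreated level and range (mean of at least 20 CPM), up to 4 called members each way in the 6 tissues, up to 5 in the 8 pairs led with (at least 10 members called in 1 direction), the 5 called in most contrasts, and Rps27l under cisplatin. Lists of mitochondrial ribosomal proteins, other TOP genes, assembly genes, regulators, p53 targets and cell markers were counted beside them. Promoter sequences came from RefSeq (GRCm38.p6), matched by symbol for 61 of 82 members.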

Additional observations from a re-analysis of the deposited data

Results flagged for a closer look

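Ileum and thymus were picked as the tissues with the highest and lowest median response of ribosomal protein genes to APAP, so a difference between them was set by that choice. The difference in response was called for 55 of 75 members as positive (ileum minus thymus) and 0 as negative by edgeR, beside 7.01% and 5.21% of all genes. By column sums the count was 13. In the 2 groups of 4 libraries, asenapine in brain and sofosbuvir in jejunum, a check looked for a library apart from the other 3. It covered the summed share and the 5 members called in most contrasts, and flagged none. The check used only the gap of the outermost library, at most 0.802 of the range (Rps15, sofosbuvir), so it cannot see a wide spread. With sofosbuvir in jejunum Rplp2 ran from 1541 to 4161 CPM and Rpl41 from 1276 to 3883 CPM.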

How the results depend on the processing

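Most results were computed again with 1 choice changed at a time, and 188 of 259 recomputed results were kept. A count was kept if its direction stayed and it lay within 1.5 times the reported count. A share of counts was kept if it moved by less than the SD of the 2 Untreated libraries. All 42 results with median ratio scaling were kept. For the results below that moved, the cause was not tested. The share of all genes called under each changed choice is not given in this section. A moved count therefore does not show that members moved more than other genes. By column sums the members higher were 1 in pancreas (71 lower) and 5 in parotid gland (26 lower), so both turned. On that scale the counts were 34 lower for APAP in thymus, 26 for EMPA and 16 for clozapine in adrenal gland, 20 higher for lurasidone in brain, 0 for clozapine in white fat and 13 positive for APAP in ileum against thymus. Summed over tissues they were 77 lower for sofosbuvir, 56 higher for risedronate, 0 higher for lenalidomide, and 118, 235, 76 and 125 lower for aripiprazole, Repatha, teriparatide and Sucrose. Without a filter on low counts clozapine had 22 members lower in adrenal gland and 22 higher in white fat, APAP in jejunum 14 lower, clozapine over all tissues 39 lower but 56 higher, and lenalidomide 3 higher. With only the libraries of a set, clozapine had 20 in adrenal gland and 0 in white fat, APAP 1 and sofosbuvir 0 in jejunum, and over all tissues alendronate had 10, aripiprazole 35, clozapine 34 and EMPA 37 lower.

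Against all other groups of set C, adrenal gland counts were 1 for EMPA, 11 for Repatha, 1 for aripiprazole, 3 for teriparatide and 0 for clozapine, and clozapine in white fat had 48. Over all tissues aripiprazole then had 10 lower and 18 higher, clozapine 22 and 71, Dox 2 and 45, so these turned. Cisplatin had 414 higher, EMPA 17 lower, lenalidomide 98 higher and teriparatide 13 lower. Against Untreated alone APAP had 14 and sofosbuvir 3 lower in jejunum, and sofosbuvir 365 over all tissues. Against Sucrose alone, chosen after seeing the data, APAP had 20 in stomach, 14 in jejunum and 140 in all, and sofosbuvir 19 in colon and 61 in all. Without replicates 3 and 4, sofosbuvir in jejunum had 20 lower in place of 11. DESeq2 gave 27 higher for clozapine in white fat, and over all tissues 263, 46, 101, 150 and 81 lower for sofosbuvir, alendronate, aripiprazole, Repatha and teriparatide, 55, 153 and 10 higher for risedronate, lurasidone and lenalidomide, and 26 lower but 29 higher for Dox.

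Shares of counts over TMM-scaled totals, also chosen after seeing the data, were 14.8% in spleen, 10.6% in thymus, 21.9% in pancreas, 3.70% in testis, 5.66% in skeletal muscle and 3.05% in brain. Without Rn45s, Akap5 and Lrrc17 in the totals they were 19.8% in spleen, 4.26% in pancreas, 3.80% in testis, 3.37% in skeletal muscle and 4.48% in brain.

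Leaving out each library in turn was run for the 8 described pairs, the 6 described tissues and, chosen after seeing the data, 3 more pairs. For tissues the fit kept the dispersion trend of all libraries. The 79 members with a tissue difference stayed at 79, and the ranges were 72 to 75 in pancreas, 67 to 74 in spleen, 66 to 75 in parotid gland, 63 to 67 in testis, 73 to 74 in eye and 73 to 75 in brain. For drugs they were 51 to 67 (cisplatin, kidney), 35 to 65 (APAP, thymus), 8 to 45 (asenapine, spleen), 1 to 55 (cisplatin, eye), 19 to 37 (EMPA) and 22 to 37 (Repatha) in adrenal gland, 21 to 39 (APAP, stomach), 8 to 42 (lurasidone, brain), 20 to 53 (cisplatin, ileum), 0 to 71 (clozapine, white fat) and 1 to 19 (APAP, jejunum). A lone library left in a group is assumed to vary like the other groups. Of 1169 recomputed values for named members, 1140 kept their call and direction and 29 lost the call. Of the 533 drug values 28 lost it. Of the 636 tissue values 1 did, Rpl41 in pancreas by column sums (0.16, adjusted p = 0.19 by edgeR). Most tissue values came from leaving out 1 of 48 libraries, mostly of another tissue, which could change little in the tissue named.

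Replicate numbers gave no steady pairing of the libraries checked, as correlations ran both ways. Deviations of same-numbered libraries correlated by 0.0764 in thymus and 0.144 in stomach for APAP with Sucrose. For lurasidone in brain they correlated by -0.0468 to -0.0246. Over 153 pairs of Untreated tissues numbered 2 and 4 the median was 0.0257 (-0.476 to 0.506, 46 above 0.1). For those numbered 1 and 3 it was -0.0618 over 15 pairs (-0.538 to 0.456, 5 above 0.1). The adrenal gland contrasts, where replicate number moved with the level, were not checked. With the replicate block 79 members differed between tissues, and the counts were 75 in pancreas, 73 in spleen, 74 in parotid gland, 66 in testis, 74 in eye, 74 in brain, 59 for APAP in thymus, 39 in stomach and 41 for lurasidone in brain. The remaining 5 pairs share fewer than 2 numbers with their reference, so no block was fitted there. Libraries of 451154 to 3685250 counts in groups of 2 limit what small differences can be called.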

Other observations

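Genes known to control ribosomal protein synthesis were read from a list of 14 beside the members. Untreated tissues were compared by edgeR on the TMM scale. In pancreas 7 of the 14 were higher and 0 lower, beside 16.3% and 13.3% of all genes. In spleen 3 were higher and 5 lower (28% and 18.3% of genes), and in testis 3 and 7 (40.2% and 28.6%). In pancreas and parotid gland the members turned by column sums, and the 14 were not read on that scale. Eif4ebp1, a repressor of cap-dependent translation that mTOR inactivates, was higher in pancreas (log2 3.28 ± 0.16 SE) and parotid gland (3.11 ± 0.10) and lower in brain (-3.41 ± 0.33), eye (-3.13 ± 0.25), testis (-2.07 ± 0.25) and spleen (-0.72 ± 0.18). Myc, a transcription factor for ribosome genes, was higher in spleen (3.08 ± 0.42) and pancreas (3.06 ± 0.85). In kidney with cisplatin 1 of 12 tested was higher, Eif4ebp1 (1.64 ± 0.39, edgeR adjusted p = 0.00133), and 3 were lower, Mtor (-0.79 ± 0.22), Maf1 (-0.67 ± 0.21) and Eif4ebp2 (-0.51 ± 0.11), beside 11.3% and 11.6% of all genes. With APAP 2 of 13 were lower in thymus, Eif4e (-0.81 ± 0.18) and Mtor (-0.74 ± 0.27), a share close to that of all genes lower there. In stomach Mtor was lower with APAP (-0.87 ± 0.23) and Rheb (0.76 ± 0.22) and Eif4ebp2 (0.55 ± 0.18) were higher. Rheb was lower with asenapine in spleen (-1.42 ± 0.40) and, with Larp1 (-0.48 ± 0.12), with lurasidone in brain (-0.72 ± 0.22). Eif4ebp2 was higher with EMPA in adrenal gland (0.56 ± 0.16), and none passed the test with Repatha there or with cisplatin in eye. The shares of all genes called in these drug contrasts are given above with each pair. These few drug calls were not read as a result about the regulators.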
